A study of Homo sapiens with 9 samples.

Results

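TAL1, the other 6 transcription factors of the haematopoietic heptad (LYL1, LMO2, GATA2, RUNX1, ERG and FLI1) and 3 further partners of TAL1 (LDB1, TCF3 and TCF12) were examined in KG-1a cells with and without a knockout of PRMT2. The 10 genes were chosen by name for their place in this network and matched by symbol in the authors' deposited table. They are 10 of the 60605 genes counted, and all 10 are among the 20655 genes that passed a filter on low counts and were tested. KG-1a is a human acute myeloid leukaemia line of CD34-positive progenitor-like cells, and PRMT2 is a protein arginine methyltransferase. The 9 libraries of total RNA form 3 groups of 3, namely the wild-type control (WT) and a pair of PRMT2 knockout lines, clone 1 and clone 2, made by CRISPR/Cas9 editing. No group received a drug, and all were grown in the same medium. Each knockout group is 1 clone, so within a group the loss of PRMT2 and other properties of that clone cannot be told apart. Separate cultures are not named for the replicates, nor is a cloning step for the WT cells, and without separate cultures the p-values measure only technical spread.

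TAL1 is a basic helix-loop-helix factor that is needed to form blood stem cells and later erythroid and megakaryocytic cells. It binds E-box DNA as a dimer with an E protein such as TCF3 or TCF12, and the adaptors LMO2 and LDB1 join this dimer to a GATA factor. In blood stem and progenitor cells the same enhancers are bound together by TAL1, LYL1, LMO2, GATA2, RUNX1, ERG and FLI1, the set called the heptad, and activation of TAL1 by rearrangement or new enhancers is a classical event in T-cell acute lymphoblastic leukaemia.

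Depth was 28006342 to 43149410 counted read pairs per library. PRMT2 itself was at 39.0 to 39.8 CPM (a gene's counts normalised to the scaled number of counted read pairs of its library) in WT, 20.2 to 21.3 in clone 1 and 21.1 to 21.4 in clone 2. It fell by 0.91 on the log2 scale in the mean of both clones (adjusted p = 2.35e-20), so PRMT2 RNA was lower but still present. Every adjusted p in the report is, unless DESeq2 is named beside it, from edgeR's quasi-likelihood test with Benjamini-Hochberg adjustment over all genes tested, and a gene is said to have risen or fallen where it is under 0.05. Replicate 1 of clone 1 stood apart, with 13.3% of its pairs mapped to multiple sites, where the other 8 libraries had 3.86% to 4.51%, and with 13113 CPM of the mitochondrial ribosomal RNA MT-RNR1 against 14.8 to 51.9 CPM. Without that library the rise of TAL1 in clone 1 was 3.32 in place of 3.34 on the log2 scale, and the count of members past the threshold in clone 1 was again 8. The comparisons of the 2 clones with WT use the same WT libraries and are therefore not independent. In bulk RNA, fewer cells with a transcript and less RNA per cell cannot be told apart.

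The TAL1 gene (ENSG00000162367) lies on the minus strand at chr1:47216290-47232225 of GRCh38. RefSeq promoter windows of the GRCh38.p14 assembly, each the 250 bases before a transcript start, were available for 8 of the 10 genes, with 17 windows in all; LMO2 and FLI1 had none. Both TAL1 windows are shown because TAL1 moved most, and the first ERG window is shown because ERG differed most between the clones. They lie at chr1:47232336-47232585 (upstream TAL1 start), chr1:47231716-47231965 (downstream TAL1 start) and chr21:38660668-38660917 (ERG), all on the minus strand, and none overlaps an exon of the annotation. Capitals mark each match, on either strand, to GATA (the core bound by GATA factors), CANNTG (the E-box of helix-loop-helix dimers), GGAA (the ETS core) and TGTGGT (the RUNX core).
TAL1 upstream window: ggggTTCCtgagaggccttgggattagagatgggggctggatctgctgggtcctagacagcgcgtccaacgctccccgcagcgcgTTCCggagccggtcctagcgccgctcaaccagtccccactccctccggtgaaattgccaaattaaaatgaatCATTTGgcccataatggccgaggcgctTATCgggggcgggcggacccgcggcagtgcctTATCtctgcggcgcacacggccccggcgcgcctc
TAL1 downstream window: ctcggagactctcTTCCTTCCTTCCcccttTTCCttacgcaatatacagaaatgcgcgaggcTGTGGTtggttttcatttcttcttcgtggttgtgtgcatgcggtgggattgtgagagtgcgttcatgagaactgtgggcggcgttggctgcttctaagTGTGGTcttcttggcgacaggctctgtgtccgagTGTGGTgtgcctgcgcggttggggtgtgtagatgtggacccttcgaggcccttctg
ERG window: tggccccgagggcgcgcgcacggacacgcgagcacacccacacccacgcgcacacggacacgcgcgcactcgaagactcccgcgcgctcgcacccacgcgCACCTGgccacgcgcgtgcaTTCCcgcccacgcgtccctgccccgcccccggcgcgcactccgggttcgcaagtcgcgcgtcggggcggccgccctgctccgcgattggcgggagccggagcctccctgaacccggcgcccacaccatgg
The upstream TAL1 window holds 2 GATA, 1 CANNTG, 2 GGAA and 0 TGTGGT matches. In the downstream TAL1 window there are 0 GATA, 0 CANNTG, 4 GGAA and 3 TGTGGT matches. The ERG window has 0 GATA, 1 CANNTG, 1 GGAA and 0 TGTGGT matches. Matches were counted on both strands, a site that reads the same on both strands was counted as 1, and a base could belong to matches of different motifs. Among the 35116 RefSeq windows of this length, GATA occurs in 45.6%, CANNTG in 61.8%, GGAA in 92.7% and TGTGGT in 11%, and 0.0769% hold 3 or more TGTGGT matches. The data do not say which start the TAL1 reads came from, and these matches describe letters only, not binding.

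Across the network, TAL1 was the member that moved most, and none of the other 9 had a log2 change above 0.63 in either clone. In the mean of both clones 7 members rose (TAL1, LYL1, LDB1, GATA2, ERG, FLI1 and TCF12), 2 fell (LMO2 and TCF3) and RUNX1 did not pass the test. For comparison, 16.4% of all tested genes rose and 18.9% fell in that contrast. Among the 11123 tested genes with a mean of at least 5 CPM, which is the range of all 10 members, the shares were 23.7% and 23.1%. In clone 1 there were 6 members that rose and 2 that fell, against 17.4% and 18.8% of all tested genes. In clone 2 there were 7 that rose and 2 that fell, against 14.4% and 16.1%. For the genes with a mean of at least 5 CPM the shares were 24.3% and 24.1% in clone 1, and 21.4% and 19.5% in clone 2. With a log2 fold change of at least 1 also required, TAL1 alone was left in each of the 3 contrasts, where 2% of all tested genes rose past that size in the mean of both clones, 2.6% in clone 1 and 1.83% in clone 2.
For 6 members (TAL1, LYL1, LDB1, GATA2, ERG and FLI1) all 6 knockout libraries were above all 3 WT libraries, a pattern seen in 11.2% of all tested genes. LMO2 and TCF3 had all 6 knockout libraries below WT, as did 13.7% of all tested genes. Among the 11123 genes with a mean of at least 5 CPM the shares were 15.7% above and 15.7% below. The median log2 change of the 7 heptad factors was 0.30 in the mean of both clones, against 0.0019 over all tested genes.

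**Figure D1:**
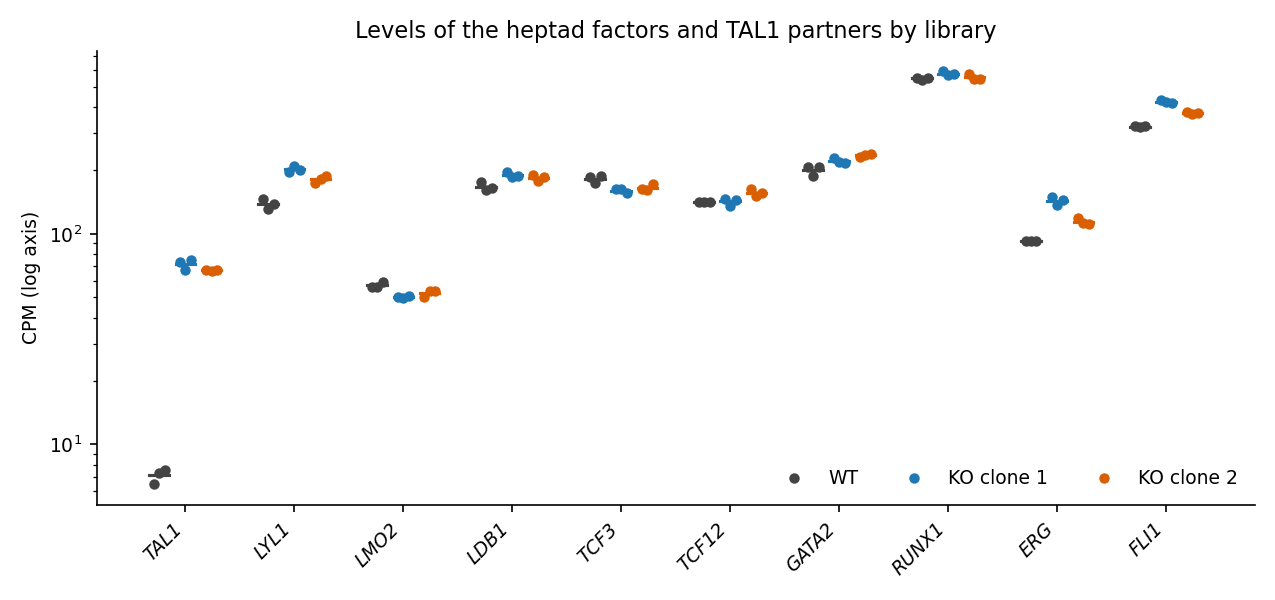
Level of each of the 10 genes in every library, in CPM on a log axis; each point is 1 library, the short bars are group means, and colours give WT, KO clone 1 and KO clone 2. TAL1 lies at 6.47 to 7.55 CPM in WT and at 66.9 to 75.2 CPM in the 6 knockout libraries, and the other 9 genes show smaller shifts, among which the 3 groups of ERG are well apart.

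TAL1 was low in WT and about 10 times higher in both clones. It was at 6.47, 7.36 and 7.55 CPM in the 3 WT libraries, at 73.5, 67.3 and 75.2 CPM in clone 1, and at 67.5, 66.9 and 67.5 CPM in clone 2. All 6 knockout libraries were far above WT, and the ranges of the 2 clones overlapped. The rise was 10.1-fold in clone 1 (log2 3.34, SE 0.058, adjusted p = 2.47e-36) and 9.45-fold in clone 2 (log2 3.24, SE 0.0576, adjusted p = 7.5e-36). The difference between the clones, -0.10 on the log2 scale (SE 0.0446), did not pass the test (adjusted p = 0.107), but it did without replicate 2 of clone 1, where it was -0.15 (adjusted p = 0.0236). In the mean of both clones TAL1 ranked 13 of 20655 by adjusted p and 22 by the size of its rise, and among the 11123 genes with a mean of at least 5 CPM only 2, TAL1 included, rose by as much.
The WT level rests on 795 counts over 3 libraries, and the knockout levels on 6628 and 8176 counts. Reads on the strand opposite to TAL1 were 0% to 0.505% of its stranded counts in the 9 libraries. A lncRNA inside the TAL1 gene on the other strand, ENSG00000226252, had 0 counts in WT, 14 in clone 1 and 7 in clone 2. In the authors' deposited table, which sets both clones together against WT with DESeq2, the TAL1 log2 fold change is 3.31. The series text names shrinkage of these values by apeglm. In that table, however, the log2 fold change divided by its SE equals the Wald statistic for all 45107 genes with both values. The relative tolerance was 1e-06. The Wald statistic is the unshrunken change over its SE, so 3.31 looks like an unshrunken value.

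LYL1, a close relative of TAL1 and able to stand in for it in stem cells, also rose in both clones, by much less. Its gene (ENSG00000104903) lies at chr19:13099033-13103161 on the minus strand. LYL1 was at 146, 132 and 139 CPM in WT, at 197, 211 and 201 CPM in clone 1, and at 174, 183 and 188 CPM in clone 2. The 3 groups did not overlap, with clone 1 highest and WT lowest. The log2 change was 0.55 ± 0.0353 (SE) in clone 1 with adjusted p = 1.05e-15 and 0.39 ± 0.0351 (SE) in clone 2 with adjusted p = 1.76e-11, and the difference of -0.16 between clone 2 and clone 1 passed the test (adjusted p = 0.000414). NHLH1, another helix-loop-helix gene of the TAL family that is known from the nervous system, was scarce, at 1.30 CPM in WT, 2.43 in clone 1 and 1.77 in clone 2, and rose by 0.68 in the mean of both clones (adjusted p = 0.000969), with 0.91 in clone 1 (adjusted p = 0.000126) and a change of 0.46 in clone 2 that did not pass the test (adjusted p = 0.0643). TAL2 and NHLH2 were below the filter. Of the 3 measured genes of the TAL family, 3 rose in the mean of both clones and in clone 1 and 2 in clone 2, against 16.4%, 17.4% and 14.4% of all tested genes.

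The E proteins, the obligate dimer partners of TAL1 and LYL1, moved in different directions. TCF3 (ENSG00000071564, chr19:1609291-1652615, minus strand), which encodes E12 and E47, was at 186, 174 and 188 CPM in WT, 163, 163 and 156 CPM in clone 1, and 163, 161 and 172 CPM in clone 2. All 6 knockout libraries lay below WT, though the highest clone 2 library was close to the lowest WT library. TCF3 fell by 0.19 in clone 1 (adjusted p = 1.18e-05) and by 0.14 in clone 2 (adjusted p = 0.00055), with an SE of 0.0329 and 0.0326.
TCF12 (ENSG00000140262, chr15:56918623-57299281, plus strand), which encodes HEB, was at 141, 141 and 142 CPM in WT, 146, 136 and 145 CPM in clone 1, and 162, 152 and 156 CPM in clone 2. Clone 1 overlapped WT, and clone 2 lay above both. The log2 change was 0.01 ± 0.0332 (SE) in clone 1 with adjusted p = 0.821, and TCF12 rose by 0.15 ± 0.0328 (SE) in clone 2 with adjusted p = 0.000334. The rise of 0.08 in the mean of both clones (adjusted p = 0.0237) lost its call under 8 of 15 other settings, among them each left-out WT library and DESeq2, with the highest adjusted p (0.334) from DESeq2 with both clones as 1 group. TCF4, the E protein known from plasmacytoid dendritic cells and not among the 10 genes, rose alike in both clones, from 244 CPM in WT to 311 and 310 CPM, by 0.35 in clone 1 and 0.34 in clone 2 (adjusted p = 6.51e-12 and 1.14e-11).

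The ID proteins hold E proteins in dimers that cannot bind DNA. ID2, the most abundant of them per kilobase in WT, was at 73.5, 72.4 and 76.3 CPM in WT, at 27.6, 27.9 and 26.5 CPM in clone 1, and at 47.1, 49.7 and 50.3 CPM in clone 2. The groups were far apart, and clone 1 was lowest. ID2 fell by 1.44 in clone 1 and by 0.59 in clone 2, and the difference of 0.84 between the clones passed the test (adjusted p = 2.65e-18). The other 2 measured members went the other way in both clones. ID1 rose from 10.6 CPM in WT to 18.7 and 17.2 CPM (log2 0.75 in the mean of both clones, adjusted p = 4.93e-13), and ID3 rose from 2.10 CPM to 5.01 and 3.90 CPM (log2 1.09, adjusted p = 7.99e-09). ID4 did not pass the filter.

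To compare levels between genes, CPM was divided by the length of each gene's exons in kilobases. On that scale TAL1 was 1.25 ± 0.101 (SD, n = 3) in WT, 12.6 ± 0.735 in clone 1 and 11.8 ± 0.0617 in clone 2. LYL1 stood at 44.5, 65.1 and 58.2 CPM per kb. TAL1 therefore made up 2.74% ± 0.324 (SD, n = 3) of the summed TAL1 and LYL1 level in WT, 16.2% ± 1.21 in clone 1 and 16.9% ± 0.576 in clone 2. Set against the summed level of the E proteins TCF3, TCF12 and TCF4, TAL1 and LYL1 together came to 88.0% ± 2.86 in WT, 152.6% ± 4.68 in clone 1 and 131.6% ± 4.47 in clone 2. The summed ID1, ID2 and ID3 level moved the other way, and was 83.6% ± 1.09 of that of the E proteins for WT, 60.6% ± 1.31 for clone 1 and 72.8% ± 3.71 for clone 2. In each of these ratios no knockout library overlapped WT. With the length of the longest transcript in place of all exons the values differed, for example 1.57%, 9.89% and 10.3% for the share of TAL1, and the order of WT and clones was the same. The ratios to the E proteins were then 100.2%, 154.2% and 133.9% for TAL1 and LYL1 together. They were 51.8%, 35.8% and 43.1% for the ID genes, so the size of these ratios depends on the length used.

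**Figure D2:**
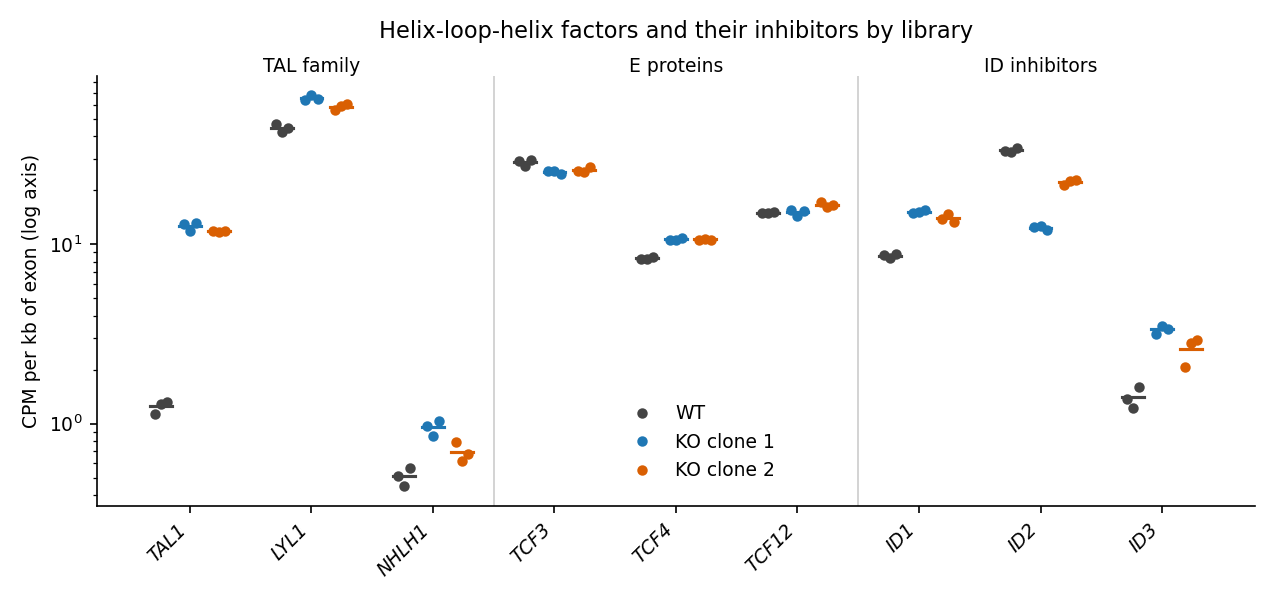
TAL family factors, E proteins and ID inhibitors in every library, in CPM per kilobase of exon on a log axis; points are libraries and bars are group means. LYL1 is the highest of the 9 genes in each group, TAL1 moves from 1.25 in WT to 12.6 and 11.8 in the clones, and ID2 is the only ID gene that is lower in the clones.

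LMO2 and LDB1, the adaptors that bridge TAL1 dimers to GATA factors and between enhancers and promoters, moved little and in opposite directions. LMO2 (ENSG00000135363, chr11:33858576-33892076, minus strand) was at 55.6, 56.2 and 59.2 CPM in WT, 50.2, 49.8 and 50.9 CPM in clone 1, and 50.2, 53.6 and 53.6 CPM in clone 2. Every knockout library was below every WT library. LMO2 fell by 0.18 ± 0.0431 (SE) in clone 1 with adjusted p = 0.000783 and by 0.12 ± 0.0421 (SE) in clone 2 with adjusted p = 0.0275. The call in clone 2 was lost without WT replicate 3 (adjusted p = 0.156) and without replicate 1 of clone 2 (adjusted p = 0.142).
LDB1 (ENSG00000198728, chr10:102106489-102120368, minus strand) was at 176, 161 and 165 CPM in WT, 197, 187 and 189 CPM in clone 1, and 191, 179 and 186 CPM in clone 2. All 6 knockout libraries were above WT, with a narrow gap. LDB1 rose by 0.19 ± 0.0333 (SE) in clone 1 with adjusted p = 1.23e-05 and by 0.15 ± 0.0331 (SE) in clone 2 with adjusted p = 0.000516.
Per kilobase, the level of TAL1 came to 6.34% ± 0.391 (SD, n = 3) of that of LMO2 in WT, 72.7% ± 3.53 in clone 1 and 65.1% ± 2.69 in clone 2. It came to 2.83% ± 0.347 of that of LDB1 in WT, 25.0% ± 1.27 in clone 1 and 24.1% ± 0.695 in clone 2.

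Of the 7 measured genes of the LMO, LDB and SSBP group, 2 rose and 3 fell in the mean of both clones. In that contrast 16.4% of all tested genes rose and 18.9% fell. The median log2 change of the group was -0.05 against 0.0019 over all genes. SSBP proteins bind LDB1 and protect it from turnover. SSBP3 rose from 94.3 CPM in WT to 135 and 147 CPM (log2 0.52 in clone 1 and 0.64 in clone 2, adjusted p = 1.38e-14 and 3.13e-17). SSBP2 fell by 0.13 and SSBP4 by 0.24 in the mean of both clones (adjusted p = 0.000117 and 2.74e-08), from 185 and 119 CPM in WT. SSBP2 was lower mainly in clone 2, at 161 CPM against 178 in clone 1, and SSBP4 mainly in clone 1, at 91.2 CPM against 110.1 in clone 2, and both differences between the clones passed the test (adjusted p = 0.000221 and 2.33e-07). LMO4 (log2 -0.05, adjusted p = 0.378) and RLIM, a ligase that targets LDB1 (log2 0.03, adjusted p = 0.524), did not pass the test in the mean of both clones. LMO4 did fall in clone 1 (log2 -0.13, adjusted p = 0.0266), a call lost without WT replicate 1 or without replicate 1 of clone 1. The clones differed in LMO4 by 0.16 (adjusted p = 0.00799). LMO1, LMO3 and LDB2 did not pass the filter.

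GATA2, the GATA factor of stem and progenitor cells, rose slightly in both clones. The gene (ENSG00000179348) lies at chr3:128479427-128493201 on the minus strand. GATA2 was at 207, 188 and 207 CPM in WT, 229, 219 and 216 CPM in clone 1, and 232, 236 and 240 CPM in clone 2. The 3 groups did not overlap, and clone 2 was highest. The log2 change was 0.14 ± 0.0341 (SE) in clone 1 with adjusted p = 0.000997 and 0.23 ± 0.0339 (SE) in clone 2 with adjusted p = 4.05e-07. The difference of 0.09 between the clones passed the test (adjusted p = 0.0371) and lost that call under 5 of 15 other settings, DESeq2 included (adjusted p = 0.0755).
The other measured GATA and FOG genes split in the mean of both clones. Among them 2 rose and 2 fell, against 16.4% and 18.9% of all tested genes. GATA1, the factor that replaces GATA2 in erythroid and megakaryocytic cells, was scarce, at 0.186 CPM in WT, 0.360 in clone 1 and 0.698 in clone 2. It rose by 1.87 in clone 2 (adjusted p = 0.000421), and its change of 0.92 in clone 1 did not pass the test (adjusted p = 0.137). GATA3, a T-cell factor, fell by 0.29 in the mean of both clones, from 48 CPM in WT to 42.8 and 36.1 CPM (adjusted p = 3.04e-07). ZFPM1, which encodes the GATA cofactor FOG1, rose by 0.21 from 86.9 CPM (adjusted p = 1.38e-06). ZFPM2, at 2.15 CPM in WT, fell by 0.48 in the mean of both clones (adjusted p = 0.0205) and passed in clone 1 but not in clone 2 (adjusted p = 0.0159 and 0.159), and the call in the mean was lost without WT replicate 1 or without replicate 3 of clone 1.

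RUNX1, the most counted member and a frequent target of mutation in myeloid leukaemia, did not pass the test in either clone. The gene (ENSG00000159216) lies at chr21:34787801-36004667 on the minus strand. It was at 551, 537 and 552 CPM in WT, 591, 566 and 572 CPM in clone 1, and 571, 543 and 546 CPM in clone 2. Clone 1 lay just above WT, and clone 2 overlapped it. The log2 change was 0.08 ± 0.0368 (SE) in clone 1 with adjusted p = 0.108 and 0.02 ± 0.0368 (SE) in clone 2 with adjusted p = 0.773; DESeq2 put clone 1 at an adjusted p of 0.0488.
Its relatives did change. RUNX2 fell from 66.2 CPM in WT to 42.0 and 55.8 CPM (log2 -0.66 and -0.25, adjusted p = 2.35e-15 and 2.35e-05), and RUNX3 rose from 243 CPM to 265 and 302 CPM (log2 0.13 and 0.32, adjusted p = 0.00285 and 4.94e-10). CBFB, the shared partner subunit (log2 -0.04, adjusted p = 0.478), and the ETO family corepressors CBFA2T2 (log2 -0.09, adjusted p = 0.0673) and CBFA2T3 (log2 0.05, adjusted p = 0.238) did not pass the test in the mean of both clones. CBFA2T2 did fall in clone 1 (log2 -0.16, adjusted p = 0.00313). The clones differed in it by 0.15 (adjusted p = 0.00923), a call lost without replicate 1 of clone 1. RUNX1T1 did not pass the filter.

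ERG and FLI1, the paired ETS factors of the heptad, both rose, and both rose more in clone 1. ERG (ENSG00000157554, chr21:38380027-38661780, minus strand) was at 92.5, 92.3 and 92.8 CPM in WT, 149, 137 and 144 CPM in clone 1, and 118, 113 and 111 CPM in clone 2. The groups were well apart, in the order WT, clone 2, clone 1. ERG rose by 0.63 ± 0.0349 (SE) in clone 1 with adjusted p = 6.84e-19 and by 0.30 ± 0.0348 (SE) in clone 2 with adjusted p = 1.89e-09.
FLI1 (ENSG00000151702, chr11:128686535-128813267, plus strand) was at 325, 320 and 324 CPM in WT, 430, 421 and 417 CPM in clone 1, and 378, 371 and 374 CPM in clone 2. The order of the groups was that of ERG, again without overlap. FLI1 rose by 0.39 ± 0.0341 (SE) in clone 1 with adjusted p = 1.27e-12 and by 0.21 ± 0.034 (SE) in clone 2 with adjusted p = 2.62e-06. The level per kilobase of ERG was 23.3% ± 0.117 (SD, n = 3) of the sum of ERG and FLI1 in WT, 26.4% ± 0.689 in clone 1 and 24.4% ± 0.487 in clone 2.
In the whole ETS family, 8 of 19 measured genes rose and 6 fell in the mean of both clones, against 16.4% and 18.9% of all tested genes. The median log2 change was 0.08 against 0.0019 over all genes. ETV4 and FEV were the 2 genes of the family that fell by more than a log2 of 1, from 3.02 CPM in WT to 0.244 and 0.407 CPM for ETV4 (log2 -3.22, adjusted p = 2.18e-16) and from 2.41 CPM to 0.461 and 1.5 CPM for FEV (log2 -1.54, adjusted p = 2.43e-09). For ETV4 the change was -0.87 when reads were counted without regard to strand.

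**Figure D3:**
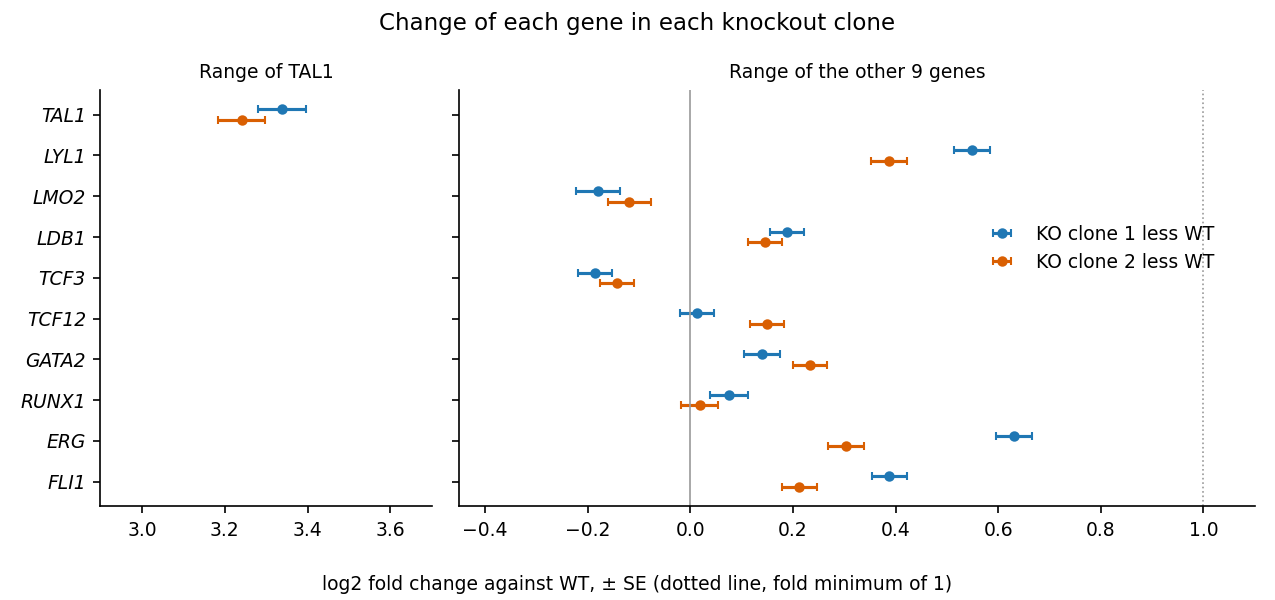
Log2 fold change of each of the 10 genes in KO clone 1 and KO clone 2 against WT, with bars of ± 1 SE and separate ranges for TAL1 and for the other 9 genes; the dotted line marks a log2 change of 1. TAL1 lies at 3.34 and 3.24, ERG, LYL1 and FLI1 lie between 0.21 and 0.63, and LMO2 and TCF3 are the 2 genes below 0 in both clones.

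The clones differed directly in 5 of the 10 genes, 2 higher and 3 lower in clone 2, where 13.4% of all tested genes were higher in clone 2 and 12.6% lower. Among the 11123 tested genes with a mean of at least 5 CPM, the range of all 10 members, the shares were 20.4% and 17.6%. ERG (log2 -0.33, SE 0.0344, adjusted p = 4.83e-10), FLI1 (log2 -0.18, SE 0.034, adjusted p = 8.89e-05) and LYL1 (log2 -0.16, SE 0.0348) were lower in clone 2 than in clone 1. TCF12 (log2 0.14, SE 0.033, adjusted p = 0.00133) and GATA2 were higher in clone 2. For LMO2, LDB1, TCF3 and RUNX1 the difference between clones was between -0.06 and 0.06 on the log2 scale and did not pass the test (adjusted p = 0.333, 0.399, 0.382 and 0.276). Replicate 1 of clone 1, the library that stood apart, had the highest clone 1 value of ERG, FLI1, LDB1, GATA2, RUNX1 and TCF12, and its part in these differences was measured by leaving it out, which gave -0.30 for ERG, -0.16 for FLI1 and -0.18 for LYL1.

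In the order of levels per kilobase, TAL1 was the lowest of the 10 genes in every group. In WT the order ran from LYL1 (44.5) and LDB1 (44.3), whose libraries overlapped, through GATA2 (40.9) and FLI1 (40.3), which also overlapped, to RUNX1 (35.1), TCF3 (28.7), LMO2 (19.7), TCF12 (15), ERG (12.2) and TAL1 (1.25). The gap between TAL1 and ERG was the widest in that order. In clone 1, FLI1 (52.7) moved up to the place behind LYL1 (65.1), though it overlapped LDB1 (50.5), and ERG (18.9) passed LMO2 (17.4) and TCF12 (15.1), leaving TAL1 at 12.6. In clone 2 the order was that of WT, with an overlap of LDB1 (49.0) and GATA2 (48) and none of LYL1 (58.2) and LDB1, and TAL1 (11.8) came within reach of ERG (15.1) without overlapping it. With the longest transcript as length, RUNX1 moved from the fifth to the second place in each group, and TAL1 remained last. By that length FLI1 held place 3 in every group, so its move up in clone 1 was not seen. ERG (28.5) still passed LMO2 (24.2) and TCF12 (23.3) in clone 1. The clone 2 order was then not that of WT, as the mean of GATA2 (62.2) passed that of LDB1 (59.8). TCF12 (25.6) also passed LMO2 (25.2) there.
TAL1 made up 0.645% ± 0.0615 (SD, n = 3) of the summed level of the 7 heptad factors in WT, 5.07% ± 0.299 in clone 1 and 5.05% ± 0.0505 in clone 2.

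No measured gene around TAL1 rose as much as TAL1. Within 500 kb of the TAL1 gene the annotation lists 29 other genes, of which 7 passed the filter. STIL, the upstream neighbour that is fused to TAL1 in some T-cell leukaemias, was at 86.0 CPM in WT, 104 in clone 1 and 82.9 in clone 2. It rose by 0.27 in clone 1 (adjusted p = 1.36e-07), its change of -0.05 in clone 2 did not pass the test (adjusted p = 0.301), and the clones differed by -0.32 (adjusted p = 5.07e-09). Downstream, the lncRNA CYP4A22-AS1 was at 0.192 CPM in WT, 0.534 in clone 1 and 0.346 in clone 2 and rose by 1.17 in the mean of both clones (adjusted p = 0.0222), a call that rests on 21, 49 and 42 counts and was lost without WT replicate 2 or without replicate 1 of clone 2. EFCAB14 (log2 -0.11, adjusted p = 0.0011), FOXD2-AS1 (log2 -0.29, adjusted p = 0.000236) and FOXD2 (log2 -0.55, adjusted p = 0.0402) fell in the mean of both clones, and the call of FOXD2, which passed in neither clone alone, was lost under 8 other settings. CMPK1 (log2 -0.05, adjusted p = 0.326) and LINC01389 (log2 -0.62, adjusted p = 0.179) did not pass the test. PDZK1IP1, the gene next to TAL1 on its downstream side, had 0 counts in WT and in clone 1 and 6 in clone 2, and did not pass the filter.

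**Figure D4:**
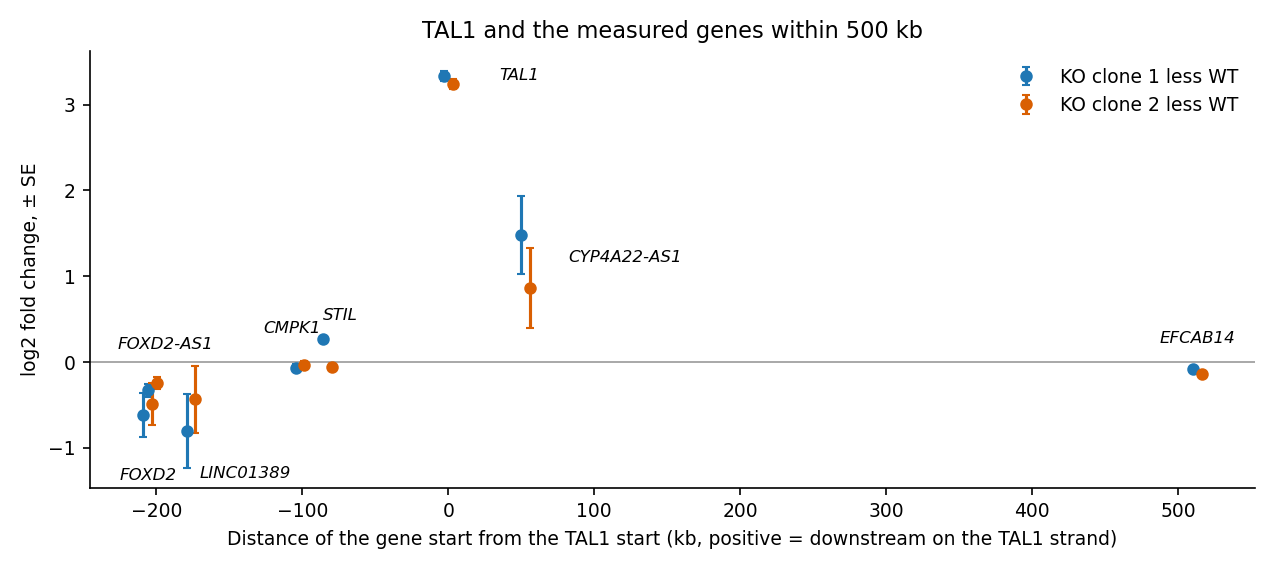
Log2 fold change against WT of TAL1 and the 7 other measured genes within 500 kb of it, with bars of ± 1 SE, against the distance of each gene's start from the TAL1 start in kb along the TAL1 strand. TAL1 lies at 3.34 and 3.24 in the 2 clones, and apart from the sparsely counted CYP4A22-AS1 the other genes lie below 0.3.

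The 5 genes whose profile over the 9 libraries was most like that of TAL1 were CYP7B1, STON2, ATP8A2, PLEKHG1 and PGAP4. Likeness was the Euclidean distance between log2(CPM + 0.5) profiles, each less its own WT mean, searched over 10880 genes with at least 5 CPM in their highest group. The pseudocount narrows the rise of genes that are scarce in WT. CYP7B1, an oxysterol hydroxylase, was the closest (distance 0.837) and rose from 0.213 CPM in WT to 6.54 and 7.62 CPM, with fitted log2 changes of 4.85 and 5.07 against 3.34 and 3.24 for TAL1. STON2, an endocytic adaptor (distance 1.02), rose from 4.90 CPM to 34.3 and 42.8 CPM. ATP8A2, a phospholipid flippase (distance 1.37), rose from 22.2 CPM to 188 and 120 CPM. PLEKHG1 and PGAP4 both had a distance of 1.65, and PLEKHG1 rose from 0.852 CPM to 11.5 and 5.89 CPM and PGAP4 from 4.13 CPM to 25.1 and 28.4 CPM. The choice by likeness fixed that these genes rose, so their rise is a description. The difference between the clones passed the test for STON2 (log2 0.32, adjusted p = 2.67e-05), ATP8A2 (log2 -0.65, adjusted p = 1.34e-19), PLEKHG1 (log2 -0.96, adjusted p = 1.43e-09) and PGAP4 (log2 0.18, adjusted p = 0.0392), the last of which lost that call under 6 other settings.

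Of the 15 chromatin cofactors known to work with TAL1, all measured, 6 rose and 1 fell in the mean of both clones, each by a log2 of less than 0.3, with a median of 0.05 against 0.0019 over all genes. Of 16 other measured transcription factors of progenitor cells, 6 rose and 4 fell, with a median of 0.03. For both lists the shares of all tested genes were 16.4% for a rise and 18.9% for a fall. HLF, a stem-cell factor, fell from 2.32 CPM to 0.244 and 0.195 CPM (log2 -3.39, adjusted p = 7.5e-15), CEBPA, a driver of myeloid maturation, from 42.2 CPM to 17.7 and 15.7 CPM (log2 -1.34, adjusted p = 1.07e-23), and NFE2, a megakaryocytic and erythroid factor, from 11.9 CPM to 6.48 and 4.15 CPM (log2 -1.21, adjusted p = 4.83e-16).
Genes that TAL1 is known to activate in T-cell leukaemia split evenly. Of 9 measured, 3 rose and 3 fell in the mean of both clones, against 16.4% and 18.9% of all tested genes. Their median was 0.05, with RUNX1 included. ALDH1A2, a retinoic acid synthesising enzyme, rose from 0.688 CPM in WT to 2.17 CPM in clone 2 (log2 1.67, adjusted p = 3.71e-07), and its level of 1.07 CPM in clone 1 did not pass the test (log2 0.62, adjusted p = 0.0788), with a difference between the clones that did (adjusted p = 0.000549). TRIB2, a pseudokinase, fell from 56.9 CPM to 11.6 and 24.1 CPM (log2 -1.76, adjusted p = 2.43e-30).

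Markers of most of the lineages in which TAL1 acts were mixed as well, while most of the measured T-cell genes fell. Their counts are for the mean of both clones unless a clone is named. In that contrast 16.4% of all tested genes rose and 18.9% fell. The shares were 17.4% and 18.8% in clone 1, and 14.4% and 16.1% in clone 2. CD34 was measured at 626 CPM in WT, 735 in clone 1 and 765 in clone 2, in keeping with the label of the line, and of 8 measured progenitor markers 3 rose and 1 fell.
Of 24 erythroid genes 8 passed the filter, with 3 that rose and 2 that fell, and the globin genes HBA2, HBB and HBE1 had 0 counts in all groups. SPTB, erythroid spectrin, rose from 0.871 CPM in WT to 6.53 and 5.22 CPM (log2 2.76, adjusted p = 5.29e-20), but by 0.23 when reads were counted without regard to strand.
Of 6 measured megakaryocyte genes 2 rose, 1 of them by a log2 of at least 1, and 3 fell. The summed level of the list, given below, was higher in both clones than in WT. The genes named here are among those that fell. ITGB3 (log2 -1.39, adjusted p = 5.87e-16) and THBS1 (log2 -1.46, adjusted p = 1.94e-16; log2 -0.55 without regard to strand) fell. Both falls were much larger in clone 1 than in clone 2, at -2.35 and -0.44 for ITGB3 and -2.19 and -0.73 for THBS1. The differences between the clones passed the test (adjusted p = 2.09e-15 and 1.01e-11).
Of 6 measured mast cell genes 2 rose and 2 fell in the mean of both clones and in clone 2, while 0 rose and 2 fell in clone 1, and the defining marker FCER1A had 0 counts in all groups. MS4A2 rose in clone 2 (log2 2.04, adjusted p = 4.84e-09), its change in clone 1 did not pass the test (log2 0.70, adjusted p = 0.0535), and the clones differed (adjusted p = 1.57e-05). CPA3 (log2 -1.19, adjusted p = 3.69e-26) and HDC (log2 -1.15, adjusted p = 1.81e-07) fell in the mean of both clones.
Of 10 measured endothelial genes 5 rose and 2 fell, and the defining marker CDH5 had 0 counts in all groups. ESAM rose from 19.9 CPM in WT to 102 and 74.6 CPM (log2 2.14, adjusted p = 1.13e-35) and PECAM1 from 26.2 CPM to 53.6 and 59.0 CPM (log2 1.03 in clone 1 and 1.17 in clone 2, adjusted p = 1.17e-21 and 8.93e-24), while ENG fell from 119.7 CPM to 49.3 and 28.8 CPM (log2 -1.67, adjusted p = 2.12e-34).
Of 8 measured T-cell genes 5 fell and 2 rose, with a median of -1.41 against 0.0019 over all genes. CD3D (log2 -1.12), CD3E (log2 -1.69), CD247 (log2 -2.55) and LCK (log2 -2.42) fell, with adjusted p = 3.34e-31, 2.92e-29, 7.36e-22 and 1.77e-16.
Levels were also summed over all genes of each list, those below the filter included. Such a sum follows its most counted genes, such as CD3D, at 290 CPM in WT, among the T-cell genes. For erythroid genes it ranged from 1355 to 1381 CPM in WT, 1107 to 1148 in clone 1 and 1205 to 1270 in clone 2. For megakaryocyte genes the sum ranged from 457 to 489, 657 to 680 and 716 to 737 CPM. It ranged from 70.8 to 76.6, 34.2 to 37.3 and 51.7 to 56.2 CPM for mast cell genes, from 431 to 452, 515 to 521 and 471 to 477 CPM for endothelial genes, and from 423 to 455, 202 to 206 and 228 to 240 CPM for T-cell genes. Whether any of these shifts has a part in the changes of TAL1 and the heptad was not tested.

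**Figure D5:**
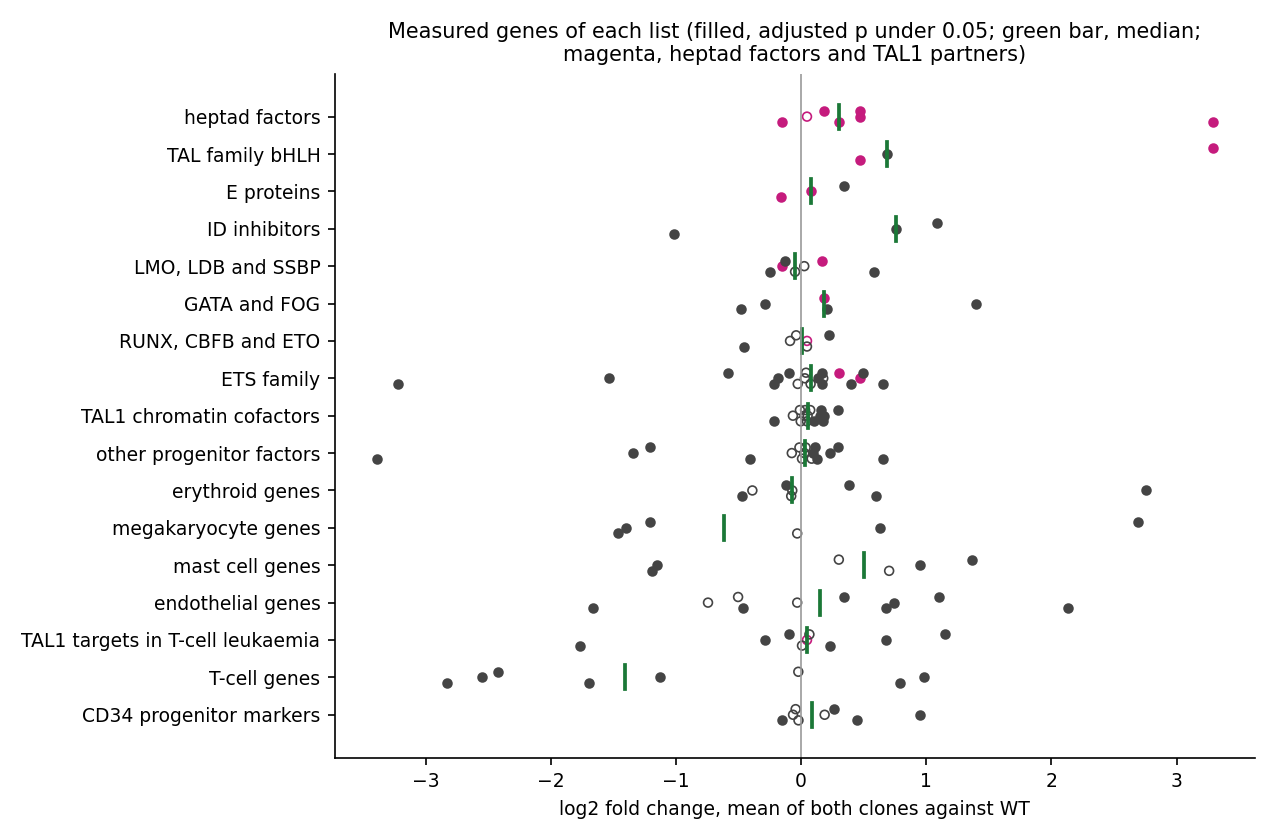
Log2 fold change over the mean of both clones, relative to WT, for every measured gene of 17 lists around the TAL1 network; each point is a gene, filled where the adjusted p is under 0.05, magenta for the 10 heptad factors and TAL1 partners, and green bars are list medians. The medians of most lists lie near 0, the median of the heptad is 0.30 and that of the T-cell genes -1.41.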

How the data were processed

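RNA-seq of total RNA was available for 9 libraries, 3 of WT and 3 of each knockout clone, grouped by their labels. Reads were aligned to GRCh38 with STAR in 2-pass mode and counted per gene by the authors, per the series text; versions are not given in the sources used here. The authors deposited counts without regard to strand and for each strand, and a DESeq2 table with log2 fold changes, their standard errors (unit score), p-values and a mean signal of counts divided by size factors. Its raw counts equalled the unstranded counts in all 9 libraries, and its 9 size-factor normalised columns were not used. The strand that holds 92.03% to 92.31% of stranded counts was analysed.

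In R 4.3.3, genes were filtered (filterByExpr), scaled by trimmed mean of M-values and tested with edgeR 4.0.16 (quasi-likelihood F test, robust, all 9 libraries, 1 coefficient per group), with Benjamini-Hochberg adjustment over 20655 genes and a threshold of 0.05. SE was derived from F (size of the log2 change over root F) and is approximate. The code was tested on simulated data. Exon lengths and positions came from GENCODE release 44, in which 60463 of 60605 identifiers were found. Floors of 3 counts came to 0.0695 to 0.107 CPM per library and cover counting error only. Alternatives were unstranded counts, DESeq2 1.42.0 size factors, no filter, only the groups compared, a replicate block, each library left out, the DESeq2 Wald test, apeglm 1.24.0 shrinkage with both clones as 1 group, and longest transcript length. Apeglm for members other than TAL1 was chosen after seeing the data.

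The members and gene lists were chosen with earlier results of these data known. The text names all 10 members, measured genes within 500 kb of TAL1, all measured TAL, E protein, ID, LMO/LDB/SSBP, GATA/FOG and RUNX/CBFB/ETO genes, PRMT2, the 5 genes most like TAL1, and up to 4 genes per list with the smallest adjusted p among those past a log2 change of 1. CD34, the markers listed at 0 counts, ENSG00000226252 and PDZK1IP1 were named after their values were seen. 1 gene of the megakaryocyte list is not reported here by name.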

Additional observations from a re-analysis of the deposited data

Results flagged for a closer look

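For 5 of the 10 genes the effect of the knockout differed between the clones by a test of the difference itself (edgeR's quasi-likelihood test, Benjamini-Hochberg adjusted). The effect in clone 2 less that in clone 1 was -0.33 for ERG (adjusted p = 4.83e-10), -0.18 for FLI1 (adjusted p = 8.89e-05) and -0.16 for LYL1 (adjusted p = 0.000414) on the log2 scale, so these 3 rose more in clone 1. It was 0.14 for TCF12 (adjusted p = 0.00133) and 0.093 for GATA2 (adjusted p = 0.0371), which were higher in clone 2. By the same test 13.4% and 12.6% of all tested genes were called higher and lower in clone 2. Among the 11123 tested genes with a mean of at least 5 CPM, the range of all 10 members, the shares were 20.4% and 17.6%. For each of the 5 genes all 3 libraries of one clone lay above all 3 of the other. The share of all tested genes with that separation was not computed, and genes chosen by this test tend to show it. With 1 clone per group, the knockout and other properties of a clone cannot be told apart.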

How the results depend on the processing

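The counts of members past the threshold stayed within 8 to 9 in each clone and in their mean, and within 4 to 5 between the clones, under every alternative run, and the rise of TAL1 in the mean of both clones stayed between 3.22 and 3.33. Of all tested genes, 36.2% passed the threshold in clone 1, 30.5% in clone 2, 35.3% in their mean and 25.9% between the clones. Among genes with a mean of at least 5 CPM the shares were 48.4%, 40.9%, 46.8% and 37.9%. Of 600 values of members under alternatives, 580 kept direction and call, 15 lost the call, 2 gained it and 3 changed sign. Of 2601 values of other named genes, 2528 kept both, 65 lost the call, 7 gained it and 1 changed sign. The sign changes were in values that passed no test. With 1 library left out in turn, TCF12 in clone 1 ranged from -0.01 to 0.05 (-0.00713 to 0.0466), RUNX1 in clone 2 from -0.0093 to 0.0318, and CBFB in the mean of both clones from -0.0847 to 0.000916; the cause was not tested. TCF12 in the mean of both clones lost its call under 8 of 15 alternatives.

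Equal replicate numbers did not pair the libraries, with correlations of their deviations from -0.0137 to 0.0122. With the replicate block, TAL1 rose by 3.29 in the mean of both clones, and 8, 9, 9 and 5 members passed the threshold in clone 1, in clone 2, in their mean and between the clones, as without it. The block ended the call of FOXD2 (adjusted p = 0.0505) and of no member. With longest transcript length, 48 of 54 values per kilobase and ratios moved by more than 1 SD and 6 did not. The WT level of TAL1 rests on 795 counts, which limits the precision of its fold change.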
